A study of Arabidopsis thaliana with 6 samples.

Results

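The anthocyanin synthesis genes described here are DFR (AT5G42800), UF3GT (AT5G54060) and the anthocyanin glucosyltransferase gene AT4G14090 of Arabidopsis thaliana. They were chosen by name, and all 3 are measured among the 13355 genes with a named probe set. RNA of seedlings was hybridised to 6 Affymetrix expression arrays, 2 from bin4-1 mutants, 2 from bin4-2 mutants and 2 from wild type (WT). bin4-1 and bin4-2 carry mutant alleles of BIN4, whose product works with plant topoisomerase VI, an enzyme that relieves tangles in DNA. By its title the series concerns this enzyme and the border between heterochromatin and islands of euchromatin. The labels give the genotype and the tissue, and no age, growth condition or treatment. The 2 arrays of a group are not stated to come from separate cultures, so the p-values reflect array-to-array spread that could be purely technical.

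Anthocyanins are the red to purple pigments of the plant vacuole, and in Arabidopsis seedlings they collect mainly in the epidermis under strong light, sugar or other stress. Chalcone synthase and the enzymes after it build dihydroflavonols. DFR, dihydroflavonol reductase, takes these into the anthocyanin branch, while flavonol synthase takes them towards colourless flavonols. Glycosyltransferases then make the pigment stable and soluble by adding sugars to it. UF3GT, also listed as UGT79B1, extends the sugar already on the pigment, and AT4G14090 is named for adding glucose to it. The late enzymes of the branch are switched on by a complex of MYB, bHLH and WD40 proteins.

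Arrays of the same genotype correlated at 0.995 to 0.997 over all probe sets, arrays of bin4-2 and bin4-1 at 0.995 to 0.996, and mutant and WT arrays at 0.906 to 0.917. Genes were compared on the log2 scale with limma, a linear model that borrows spread across genes, and a gene passed where its p, adjusted over all genes, was under 0.05. The mutated gene BIN4 changed by -0.53 ± 0.11 in bin4-1 and by -0.87 ± 0.11 in bin4-2 (SE, adjusted p from limma 0.0015 and 3.18e-05). Seedling tissue was visible in the leaf gene RCA and the root gene PYK10, at mean log2 intensities of 12.25 and 11.30 in WT. The seed gene M17 stood at 2.45 in WT. None of 6 listed epidermis markers has a named probe set here, so the tissue in which anthocyanins collect could not be checked.

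DFR fell in both mutants. Its deposited intensity, a summary of the probe set's brightness by RMA on a linear scale, was 13.0 and 13.5 on the bin4-1 arrays, 16.5 and 15.8 on the bin4-2 arrays, and 32.2 and 34.1 on the WT arrays. All 4 mutant arrays lay below both WT arrays, a separation whose share over all genes was not counted, here or for the other members. On the log2 scale the lowest WT value stood above the highest bin4-1 value by 1.25 and above the highest bin4-2 value by 0.97. The range between the WT arrays was 0.08. The mean log2 intensity was 3.73 ± 0.04 in bin4-1, 4.01 ± 0.05 in bin4-2 and 5.05 ± 0.06 in WT (SD, n = 2 each). That is 2.50-fold lower in bin4-1 (log2 -1.32 ± 0.10, SE, adjusted p from limma 5.74e-07) and 2.06-fold lower in bin4-2 (log2 -1.04 ± 0.10, adjusted p = 4.6e-06). In whole seedlings, fewer cells that express a gene and less of its RNA per cell cannot be told apart.

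UF3GT also fell in both mutants. Its intensity was 11.5 and 11.3 on the bin4-1 arrays, 11.6 and 12.1 on the bin4-2 arrays, and 19.8 and 24.9 on the WT arrays. The 4 mutant arrays lay close together and below both WT arrays, while the WT arrays differed from each other by 0.33 on the log2 scale. The mean log2 intensity was 3.51 ± 0.02 in bin4-1, 3.57 ± 0.04 in bin4-2 and 4.47 ± 0.23 in WT (SD, n = 2 each). UF3GT was 1.95-fold lower in bin4-1 (log2 -0.96 ± 0.12, SE, adjusted p from limma 3.82e-05) and 1.87-fold lower in bin4-2 (log2 -0.91 ± 0.12, adjusted p = 6.47e-05).

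AT4G14090 fell in bin4-1, and its lower value in bin4-2 did not pass the threshold of 0.05. The intensity was 12.5 and 12.6 on the bin4-1 arrays, 15.03 and 14.64 on the bin4-2 arrays, and 16.3 and 19.6 on the WT arrays. The groups did not overlap, but the gap between the highest bin4-2 array and the lowest WT array was 0.12 on the log2 scale, against a range of 0.27 between the WT arrays. The mean log2 intensity was 3.65 ± 0.01 in bin4-1, 3.89 ± 0.03 in bin4-2 and 4.16 ± 0.19 in WT (SD, n = 2 each). On the log2 scale bin4-1 differed from WT by -0.51 ± 0.11 (SE, adjusted p from limma 0.00296). The difference of bin4-2 was -0.27 ± 0.11 (SE, adjusted p from limma 0.0714, unadjusted p from limma 0.0366). The bin4-2 value rests on the WT array used, with -0.40 without WT replicate 1 (limma adjusted p = 0.0162) and -0.14 without WT replicate 2 (limma adjusted p = 0.386).

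**Figure D1:**
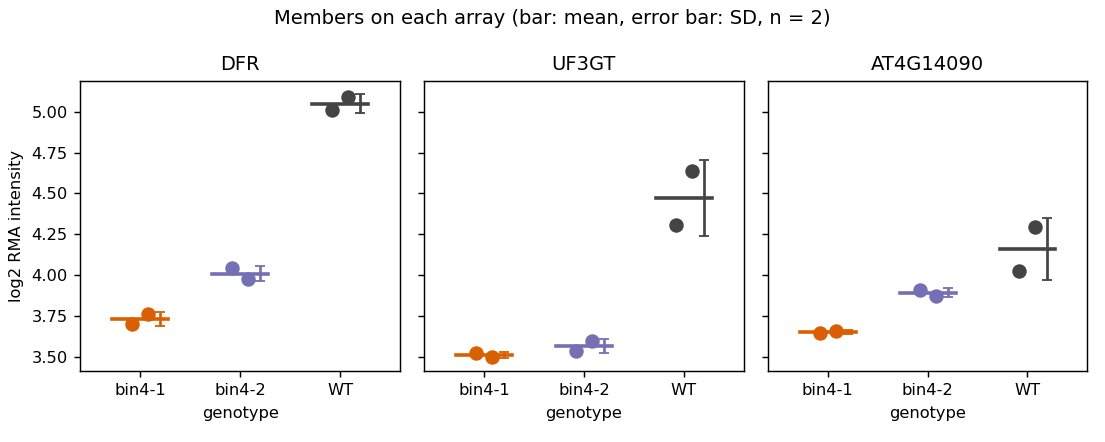
Log2 RMA intensity (vertical axis) of DFR, UF3GT and AT4G14090 on each array of bin4-1, bin4-2 and WT (horizontal axis); points are arrays, long bars group means and error bars the SD (n = 2). For each gene the 4 mutant arrays lie below both WT arrays, with the smallest gap, 0.12, between bin4-2 and WT for AT4G14090. The share of all genes that separate in this way was not counted.

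All 3 members passed as lower in bin4-1, where 25.0% of all genes did, and 2 of 3 passed as lower in bin4-2, where 26.6% of all genes did. The share of genes with a more negative log2 change than DFR was 4.0% in bin4-1 and 6.07% in bin4-2. For UF3GT these shares were 7.35% and 7.68%, and for AT4G14090 they were 15.7% and 29.7%. Across all genes the median change was -0.08 in bin4-1 and -0.09 in bin4-2. DFR and UF3GT thus sat in the lower tail of the distribution in both mutants, and AT4G14090 nearer to its bulk. The share of all genes with all 4 mutant arrays below both WT arrays was not counted. The root gene PYK10, which passed in neither mutant, was also separated in this way.

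**Figure D2:**
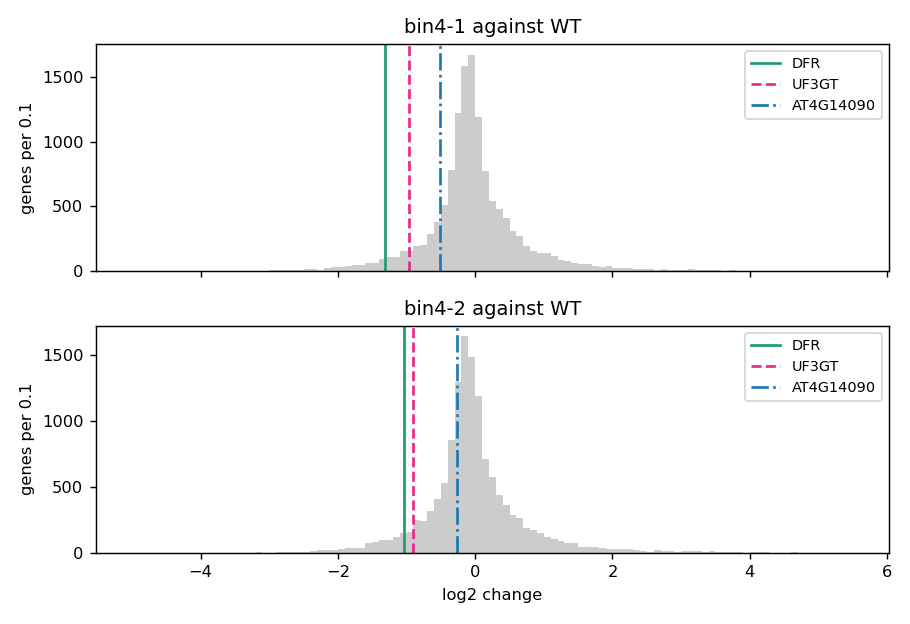
Number of genes (vertical axis, bins of 0.1) by log2 change (horizontal axis) in bin4-1 and in bin4-2 against WT, for 13355 genes; vertical lines mark the members. DFR lies farthest into the lower tail in both panels, at -1.32 and -1.04, and AT4G14090 nearest to the centre, at -0.51 and -0.27.

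The members were of middle to low brightness among the genes of each array. DFR lay at the 60.2nd and 60.9th percentiles of genes on the WT arrays, and between the 40.0th and 45.8th percentiles on the 4 mutant arrays. UF3GT lay at the 49.4th and 54.1st percentiles on the WT arrays, and between the 35.3rd and 38.3rd on the 4 mutant arrays. AT4G14090 lay at the 44.9th and 48.5th on the WT arrays, and between the 38.6th and 43.7th on the 4 mutant arrays. No background level was set, and adding 16 to each intensity before taking the log, which shrinks changes of dim genes, gave DFR log2 changes of -0.75 in bin4-1 and -0.61 in bin4-2. UF3GT gave -0.48 and -0.46 on that scale and AT4G14090 -0.25 and -0.14, with each call as before.

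Each member had a higher mean in bin4-2 than in bin4-1, and none of these differences passed. Both bin4-2 arrays lay above both bin4-1 arrays for each of the 3 genes. How many of all genes separate the alleles in this way was not counted, so nothing particular to the members is read from it. bin4-2 against bin4-1 gave 0.28 for DFR on the log2 scale, with a 95% interval of 0.06 to 0.50 (limma adjusted p = 0.559, unadjusted p = 0.0186). UF3GT gave 0.06 (-0.21 to 0.32, limma adjusted p = 0.971), and AT4G14090 gave 0.24 (-0.01 to 0.49, limma adjusted p = 0.766). These intervals are not adjusted for the number of genes tested. Over all genes 0.247% passed between the alleles in either direction.

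The difference between 2 members within each array was compared between mutants and WT, and only its change between the groups can be read. With 15 splits of the arrays 0.0667 is the smallest p this design allows, so no pair could pass 0.05. DFR minus AT4G14090 was 0.06 and 0.10 log2 units on the bin4-1 arrays, 0.13 and 0.10 on the bin4-2 arrays, and 0.98 and 0.80 on the WT arrays. UF3GT minus AT4G14090 was -0.12 and -0.16 on the bin4-1 arrays, -0.37 and -0.28 on the bin4-2 arrays, and 0.28 and 0.34 on the WT arrays. In both pairs, which share AT4G14090, the mutant and WT arrays did not overlap. How many gene pairs separate in this way was not counted, so nothing particular to the members is read from it. The mean was 0.10 ± 0.03 in mutants and 0.89 ± 0.13 in WT for the first pair, and -0.23 ± 0.11 and 0.31 ± 0.04 for the second (SD, n = 4 mutant and 2 WT arrays). The mutants differed from WT by -0.79 and -0.54 (two-sided exact permutation p = 0.0667 for each, adjusted p = 0.1 over the 3 pairs). Adding 16 to each intensity gave -0.49 and -0.28 for these pairs. How far the low brightness of the members on the mutant arrays limits these differences was not tested. DFR minus UF3GT differed by -0.25 (two-sided exact permutation p = 0.2), with overlapping arrays. This value was -0.12 without WT replicate 1 and -0.37 without WT replicate 2.

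**Figure D3:**
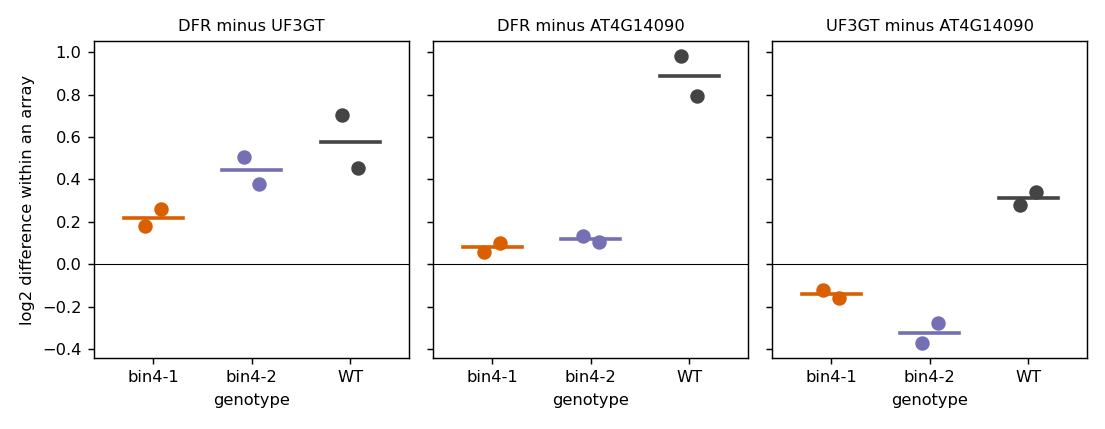
Log2 difference between 2 members within an array (vertical axis) for bin4-1, bin4-2 and WT (horizontal axis); points are arrays and bars group means. The mutant arrays lie below the WT arrays for DFR minus AT4G14090 and UF3GT minus AT4G14090, by 0.79 and 0.54 on average. Mutant and WT arrays overlap for DFR minus UF3GT. The share of gene pairs that separate in this way was not counted.

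Of 11 listed anthocyanin-branch genes, 5 were measured, the 3 members among them. Measured here means having a named probe set. All 5 passed as lower in bin4-1 and 4 of 5 in bin4-2, with a median log2 change of -0.93 and -0.91. Over all genes 25.0% and 26.6% passed as lower, with medians of -0.08 and -0.09, and only UGT78D2 and AT5MAT add to the members here. UGT78D2, which puts the first sugar on anthocyanidins and also on flavonols, had log2 intensities of 5.96 and 6.08 in bin4-1, 5.73 and 5.88 in bin4-2, and 6.87 and 7.02 in WT. It fell by 0.93 and 1.14 in bin4-1 and bin4-2 (limma adjusted p = 2.55e-05 and 4.75e-06). AT5MAT, which adds a malonyl group to the glucose placed by the anthocyanin glucosyltransferase, was dim, at 3.02 and 3.01 in bin4-1, 3.14 and 2.96 in bin4-2, and 3.42 and 3.43 in WT. It fell by 0.41 and 0.38 (limma adjusted p = 0.00696 and 0.011). All mutant arrays lay below both WT arrays for both of these genes, a separation whose share over all genes was not counted. The step next to DFR, the dioxygenase LDOX, is not among the genes with a named probe set here and was not analysed.

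Of 5 listed early flavonoid genes only 1, CHIL, was measured, and of 9 listed flavonol-branch genes 3 were. CHIL passed as lower in both mutants. Of the 3 flavonol-branch genes, 2 passed as lower in bin4-1 and 3 in bin4-2. Over all genes 25.0% and 26.6% passed as lower in bin4-1 and bin4-2. CHIL, a chalcone isomerase-like protein that assists chalcone synthase, had log2 intensities of 4.76 and 4.78 in bin4-1, 5.05 and 5.09 in bin4-2, and 6.54 and 6.39 in WT. The bin4-1 mean differed from WT by -1.69 ± 0.10 and the bin4-2 mean by -1.40 ± 0.10 (SE, limma adjusted p = 8.28e-08 and 4.62e-07). UGT78D1, which adds rhamnose to flavonols, had 5.19 and 5.07 in bin4-1, 5.35 and 5.60 in bin4-2, and 7.08 and 7.13 in WT. UGT78D1 differed from WT by -1.98 ± 0.11 for bin4-1 and by -1.64 ± 0.11 for bin4-2 (SE, adjusted p from limma 5.29e-08 and 2.84e-07), the most negative changes among the 15 measured pathway genes in each mutant. AT1G06000, a locus placed in the flavonol-branch list, fell by 1.09 and 1.05. UGT78D3, a flavonol arabinosyltransferase, changed by -0.30 in bin4-1 (limma adjusted p = 0.0504) and fell by 0.43 in bin4-2 (adjusted p = 0.00901). The falls of CHIL and UGT78D1 were thus larger in value than that of DFR in each mutant, a difference that was not tested.

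Genes outside the anthocyanin and flavonol branches moved in both directions. BAN, the anthocyanidin reductase of seed-coat tannin synthesis, had a mean log2 intensity of 2.92 in bin4-1, 2.73 in bin4-2 and 2.78 in WT, with overlapping arrays. HCT, a transferase of lignin synthesis, rose by 0.59 and 0.52 in bin4-1 and bin4-2 (limma adjusted p = 3.73e-04 and 9.61e-04). ALDH2C4, an aldehyde dehydrogenase that makes ferulic and sinapic acid, fell by 0.60 and 0.61 (limma adjusted p = 4.43e-04 and 3.93e-04).

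Only 3 of 27 genes listed as regulators of flavonoid genes have a named probe set here, and MYB and bHLH activators of the late genes are not among them. HYH, a light-signalling bZIP factor related to HY5, had log2 intensities of 5.29 and 5.22 in bin4-1, 5.92 and 5.92 in bin4-2, and 5.92 and 5.63 in WT. It fell by 0.52 in bin4-1 (limma adjusted p = 0.00304) and changed by 0.14 in bin4-2 (adjusted p = 0.342). The allele difference of HYH was 0.67 (limma adjusted p = 0.0509). Leaving out 1 array gave differences of 0.63 to 0.70. Over the other alternatives the limma adjusted p lay on both sides of the threshold. It ranged from 0.00383 with an intensity trend to 0.0806 after adding 16 to each intensity. TRY, an R3 MYB protein that competes with activating MYBs for their bHLH partners, fell by 1.02 and 0.91 in bin4-1 and bin4-2. AT1G23390, a locus placed in the repressor list under the name KFB-CHS, had 8.76 and 8.72 in bin4-1, 8.44 and 8.64 in bin4-2, and 6.88 and 7.01 in WT. Whether its product acts on flavonoid genes or on an enzyme was not examined here. AT1G23390 rose by 1.80 ± 0.11 and 1.60 ± 0.11 (SE, limma adjusted p = 8.61e-08 and 2.66e-07).

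Over all 7 branches and regulator lists together with the phenylpropanoid entry enzymes, 75 genes were listed and 15 measured. Apart from the 3 members, 8 of 12 passed as lower and 2 of 12 as higher in each mutant. The median log2 change of these 12 genes was -0.56 in bin4-1 and -0.52 in bin4-2. Over all genes 25.0% and 26.6% passed as lower, and 22.0% and 21.1% as higher, in bin4-1 and bin4-2. None of the 15 passed between the alleles, with HYH the nearest to the threshold. The lists were chosen with earlier results of these data known, and none of the entry enzymes from phenylalanine ammonia-lyase on has a named probe set here. Whether probe sets with no gene listed cover such genes was not checked.

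**Figure D4:**
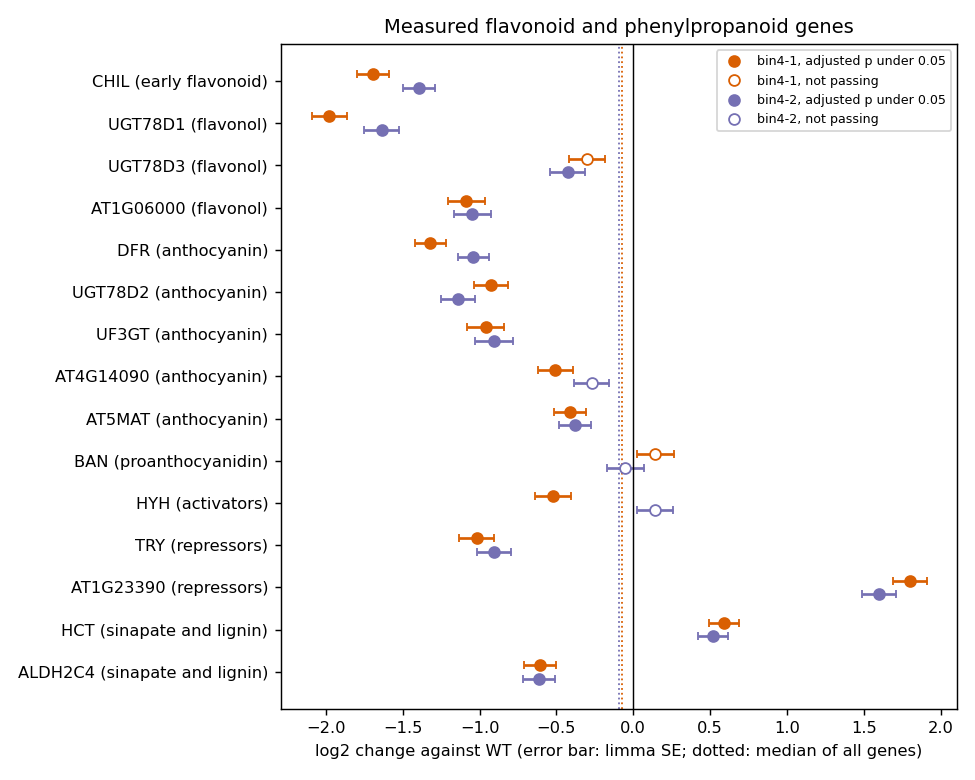
Log2 change against WT (horizontal axis, error bars limma SE) of the 15 measured pathway genes in bin4-1 and bin4-2 (list in brackets); filled points passed the adjusted p threshold, and dotted lines mark the median of all genes. The early, flavonol and anthocyanin genes lie left of 0 in both mutants, with UGT78D1 at -1.98 and -1.64, while AT1G23390 and HCT lie right of 0.

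Of the 7 measured tissue markers, 3 passed as lower in bin4-1 and 4 in bin4-2, and none passed as higher. For bin4-1, 25.0% of the 13355 genes received a lower call and 22.0% a higher one. For bin4-2 these shares came to 26.6% and 21.1%. With 7 markers, nothing particular to a tissue is read from these counts. RCA, Rubisco activase of green tissue, fell by 2.20 in bin4-1 and 1.83 in bin4-2. EXPA18, an expansin of root hairs, fell by 1.09 and 1.46, and EXPA7, also of root hairs, changed by -0.21 (limma adjusted p = 0.174) and fell by 0.57. PYK10, a beta-glucosidase abundant in roots, changed by -0.12 and -0.24 without passing. TRY, described above and also listed as a trichome marker, fell by 1.02 and 0.91. The trichome gene SIM gave -0.32 and -0.25 without passing, and M17 gave -0.00 and -0.08. Only 1 of 6 leaf, 2 of 4 trichome, 3 of 6 root and 1 of 5 seed markers are measured, and their part in the members' changes was not tested.

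Listed relatives of DFR held genes with large rises. Of 17 listed reductase genes related to DFR, 9 were measured. In bin4-1, 1 passed as lower and 4 as higher, and in bin4-2, 2 as lower and 4 as higher, with a median log2 change of 0.14 and 0.04. Calls in both directions were also common among all genes, at 25.0% and 26.6% lower and 22.0% and 21.1% higher. The relatives passed more often as higher than as lower, unlike all genes, and with 9 genes this was not tested. AT1G09500 had log2 intensities of 6.90 and 6.79 in bin4-1, 7.08 and 6.85 in bin4-2, and 3.29 and 3.22 in WT, and rose by 3.60 and 3.72. CCR2, a cinnamoyl-CoA reductase, rose by 2.57 and 2.61, AT5G19440 by 1.42 and 1.37, and AT1G09510 by 1.32 and 1.24. AT2G23910 fell by 0.84 and 0.63, and AT1G66800 changed by -0.24 in bin4-1 without passing and fell by 0.80 in bin4-2.

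Of 11 listed UGT79B genes, the group of UF3GT, 9 were measured, at mean log2 values of 2.64 to 3.76 in WT for the 8 other than UF3GT. Of these 8, 2 passed as lower and 1 as higher in bin4-1, and 0 as lower and 1 as higher in bin4-2. The share of all genes passing as lower was 25.0% in bin4-1, the same as 2 of 8, and 26.6% in bin4-2. AT4G09500 and AT3G29630 fell by 0.37 and 0.56 in bin4-1 and changed by -0.21 and -0.18 in bin4-2. AT5G53990, which lies 11 annotated loci from UF3GT on chromosome 5, had 4.22 and 4.18 in bin4-1, 4.01 and 3.94 in bin4-2, and 3.59 and 3.29 in WT. AT5G53990 rose by 0.75 and 0.53 (limma adjusted p = 2.3e-04 and 0.00276). AT5G54010, the flavonol glycosyltransferase UGT79B6 at 9 loci from UF3GT, gave -0.11 and -0.16 without passing. IAGLU, the other measured gene of the UGT75 group of AT4G14090, named for a glucosyltransferase acting on auxin, rose by 0.82 and 0.80.

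**Figure D5:**
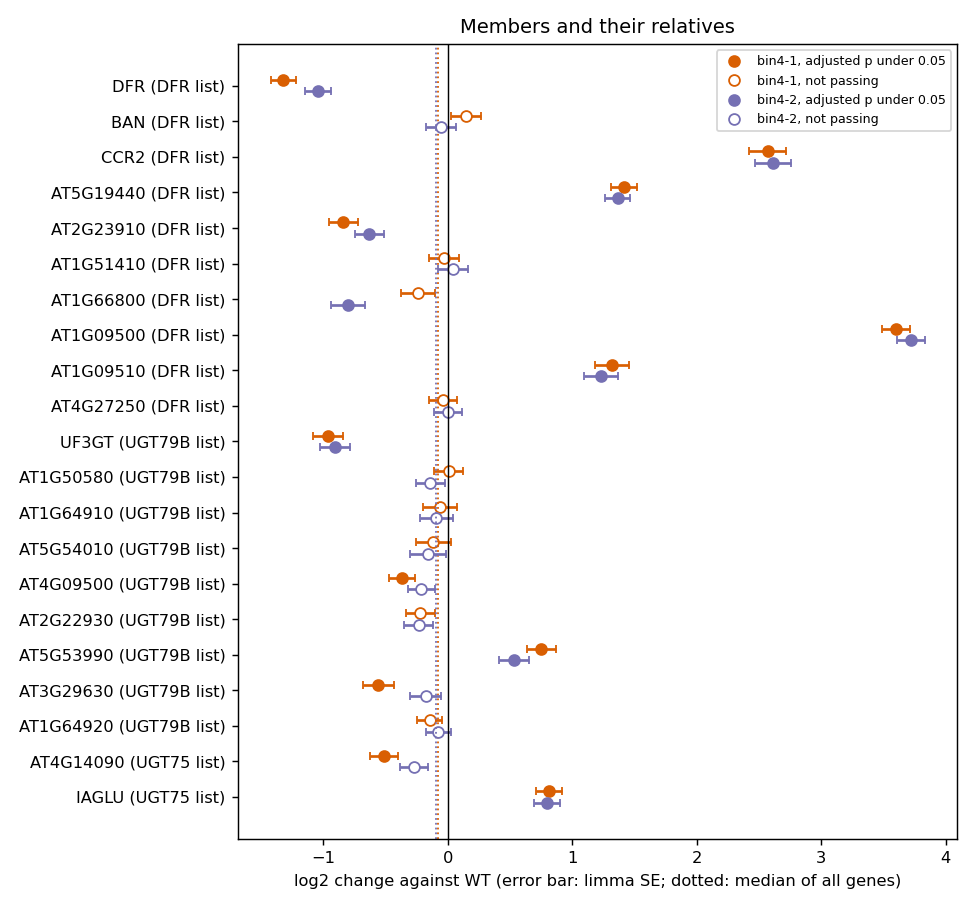
Log2 change against WT (horizontal axis, error bars limma SE) of the members and their measured relatives in bin4-1 and bin4-2; filled points passed the adjusted p threshold, and dotted lines mark the median of all genes. DFR, UF3GT and AT4G14090 lie left of 0, while relatives lie on both sides, from AT2G23910 at -0.84 to AT1G09500 at 3.60 in bin4-1.

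DFR and UF3GT lie on chromosome 5 and AT4G14090 on chromosome 4. Of the 12 nearest measured loci, 2 on each side of each member, 5 passed as lower and 2 as higher in bin4-1, and 5 as lower and 1 as higher in bin4-2. Over all genes 25.0% and 26.6% passed as lower and 22.0% and 21.1% as higher, and with 12 loci nothing particular to the neighbourhood is read from these counts. On one side of DFR, AT5G42765 fell by 1.34 and 1.29 in bin4-1 and bin4-2. AT5G42760 changed by -2.19 and -1.90 on that side, while AT5G42830 on the other side rose by 2.90 and 2.64. AT5G54050, the locus adjoining UF3GT, rose by 0.30 in bin4-1 and changed by 0.22 in bin4-2 (limma adjusted p = 0.0363 and 0.103). AT4G14100, whose annotated span overlaps that of AT4G14090, had log2 intensities of 5.72 and 5.83 in bin4-1, 5.79 and 5.85 in bin4-2, and 6.68 and 6.60 in WT. AT4G14100 fell by 0.86 and 0.82 (limma adjusted p = 2.48e-05 and 4.03e-05), more in value than AT4G14090. Where the probe sets lie relative to this overlap was not analysed here.

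The genes whose pattern over the 6 arrays was most like that of each member were found by the root mean square difference of log2 values centred on each gene's mean. For DFR these were EXLB1, SECE1, AT2G42130 and AT3G28460, at 0.05 to 0.06. EXLB1, an expansin-like gene, had mean log2 intensities of 5.83 in bin4-1, 6.21 in bin4-2 and 7.17 in WT. For UF3GT they were AT5G59770, the gene listed as ATPMEPCRD, AT5G35180 and AT2G17340, at 0.04 to 0.05. For AT4G14090 they were AT4G17760, AT1G27385, AT2G26520 and AT1G53810, at 0.04 to 0.05. None of these is in the pathway lists. By the same measure UF3GT ranked 403rd among the 13354 other genes for DFR, at 0.17, and AT4G14090 ranked 2154th, at 0.38. For AT4G14090, DFR ranked 9860th and UF3GT 7378th. The values were centred but not scaled, so the measure counts the size of a change as well as its shape. Genes that changed little can thus lie close to AT4G14090, and these ranks do not show that the members differ in shape.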

How the data were processed

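Per the submitters' processing notes, the authors computed the deposited values with RMA (robust multi-array average), and they are intensities on a linear scale. For RMA, its version and settings were not given in the sources used here. Of 22810 probe sets, 64 are manufacturer controls, 13513 list exactly 1 gene, 503 several and 8730 none in the platform annotation, and 13436 of those with 1 gene were matched by identifier to RefSeq names (TAIR10.1). For 147 genes with several probe sets the one with the highest mean was kept, which left 13355 genes.

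The log2 of each intensity was modelled in R 4.3.3 by limma 3.58.1 (functions lmFit and eBayes, 3 group means, 6 arrays, 3 residual and 8.25 prior degrees of freedom), two-sided, with Benjamini-Hochberg adjustment over all genes and a threshold of 0.05. Within-array differences were tested by exact permutation. The fit was checked on simulated arrays. Tables and figures used Python 3.11.15, pandas 2.3.3, numpy 2.4.6, scipy 1.17.1 and matplotlib 3.10.9. For arrays, their number limits the precision. Groups follow the genotype label, and replicate numbers only name arrays.

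The members, lists and tests were chosen with earlier results of these data known. Named genes are the members, measured list genes and, for each member, the 4 genes of most similar pattern. Neighbouring loci were added after the members' values had been seen. Alternatives were all probe sets, a filter on low values, quantile normalization, median centring, a pseudocount of 16, an intensity trend, robust eBayes, only the 4 arrays compared, the mean of probe sets, a block by title suffix and leaving out each array. No sequences of the members were used here.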

Additional observations from a re-analysis of the deposited data

How the results depend on the processing

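Every alternative run for DFR and UF3GT kept the direction and the call of each contrast, as did those for AT4G14090 other than leaving out WT replicate 1. Without 1 array, AT4G14090 ranged from -0.40 to -0.14 in bin4-2 against WT. None of the members has a mean log2 of at least 5, so that filter gives them no value, and it leaves 1 anthocyanin-branch gene, UGT78D2, lower in both mutants. With that filter 5 of the 8 pathway genes left, UGT78D2 among them, were lower in bin4-2. The replicate block by title suffix, which nothing shows to pair the arrays, gave -0.27 for AT4G14090 in bin4-2 (limma adjusted p = 0.0771) and changed no call of a member. Over all genes, 6270 passed in bin4-1 and 6376 in bin4-2, against 11846 and 12031 with all probe sets and 3927 and 3934 with a mean log2 of at least 5, which change how many features are tested. Between the alleles 33 genes passed, against 55 with all probe sets, 127 with an intensity trend, 52 with a mean log2 of at least 5 and 51 with only the 4 arrays compared. Leaving out 1 array gave 7 to 51, and the cause was not tested. Counts of lower pathway genes and HYH under the alternatives were chosen after seeing the data.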
